A study of Mus musculus with 31 samples.

Results

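Melanocytes are recognised by a small group of lineage and pigment genes, and 10 of these genes were followed as a measure of how differentiated a mouse melanoma line was in tumors and in culture. They are the transcription factor genes *Mitf*, *Sox10* and *Pax3*, the receptor genes *Kit* and *Ednrb*, the enzyme genes *Tyr*, *Tyrp1* and *Dct*, and the melanosome protein genes *Pmel* and *Mlana*. The genes were chosen by symbol as known melanocyte markers, and all 10 symbols were found once each among the 39179 genes counted.

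RNA was sequenced from the 3′ ends of transcripts in 20 tumors and 11 cultures of a mouse melanoma line and of its GR KO derivative, a clone grown from a single cell after Cas9 ribonucleoprotein editing of *Nr3c1*, the gene of the glucocorticoid receptor (GR). Both lines trace back to a C57BL/6 mouse model with the alleles Nras +LSL-G12D;Tyr::CreERT2 +/o, in which tamoxifen-inducible Cre is driven by the tyrosinase promoter and switches on mutant Nras, so controls and treated samples share these alleles. For the tumors, parental or GR KO cells were implanted intradermally in wild-type C57BL/6 mice that received a control cream or the glucocorticoid (GC) clobetasol propionate as a 0.05% ointment on the skin 3 times a week, with 5 mice in each of the 4 groups. For the cultures, either line received DMSO or clobetasol propionate over 48 hours, with 3 cultures per group except for 2 parental cultures with GC. The treatment field of the cultures gives 10 µM and the library names give 1 µM. Neither the age of the mice nor the length of treatment before tumor collection is given with the samples. Tumors were sequenced whole, with host skin, vessel, immune and stromal cells that keep an intact *Nr3c1*. The tumors came from separate mice, whereas nothing states that the cultures were set up separately, so p-values from cultures measure the spread between these samples.

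In melanocytes, SOX10 and PAX3 activate *Mitf*, and MITF in turn activates the genes of pigment synthesis. KIT and EDNRB are surface receptors that melanoblasts need to migrate and survive. Tyrosinase, encoded by *Tyr*, starts melanin synthesis, TYRP1 and DCT process its later intermediates, PMEL builds the fibrils on which melanin is laid down, and MLANA is a melanosome membrane protein. In melanoma, low expression of the pigment genes marks dedifferentiated cells.

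The count tables hold between 15528066 and 26386770 reads per tumor (median 19693173) and between 14441166 and 22463188 reads per culture (median 17054739). Levels are given as CPM, the counts of a gene relative to sequencing depth, with TMM factors over all 31 libraries, as mean ± SD. A gene with 3 counts or fewer in a library was treated as being at the floor, which corresponded to between 0.110 and 0.212 CPM. Intervals and floors cover counting error only, since reads without molecular identifiers are not independent molecules. The counts include 3′ reads only, so levels are compared between samples and never between genes.

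Before the melanocyte genes were compared, the labels were checked on the edited gene and on GC-induced genes. Reads of *Nr3c1* were present in all 31 libraries, with 304 to 478 counts in GR KO cultures with DMSO and 487 to 606 in parental cultures with DMSO. Its level was 21.3 ± 4.36 CPM (SD, n = 3) in the first group and 34.4 ± 2.285 CPM (SD, n = 3) in the second, while control tumors held 26.4 ± 5.04 CPM (SD, n = 5) when GR KO and 53.8 ± 6.68 CPM (SD, n = 5) when parental. Under GC, tumors held 41.1 ± 14.1 CPM when GR KO and 42.0 ± 11.65 CPM when parental (SD, n = 5 each), and GC cultures 19.2 ± 5.03 CPM (SD, n = 3) when GR KO and 37.6 ± 4.09 CPM (SD, n = 2) when parental. The log2 differences by edgeR were -1.02 (SE 0.24, adjusted p = 0.0313) in control tumors, -0.02 (SE 0.24, adjusted p = 0.981) in GC tumors, -0.67 (SE 0.22, adjusted p = 0.0840) in DMSO cultures and -0.95 (SE 0.24, adjusted p = 0.0384) in GC cultures. DESeq2 called the DMSO cultures as well (adjusted p = 0.0390). Tags at the 3′ end of a transcript do not read the edited site and so do not check the edit. A list of 6 GC-induced genes (*Tsc22d3*, *Per1*, *Fkbp5*, *Zbtb16*, *Klf9*, *Sgk1*) summed to 946 and 869 CPM in the 2 parental cultures with GC, against 241 to 261 CPM in parental cultures with DMSO, 231 to 270 CPM in GR KO cultures with DMSO and 218 to 287 CPM in GR KO cultures with GC. In GC-treated GR KO tumors the same list reached 646 ± 72.4 CPM (SD, n = 5), above the 256.6 ± 28.65 CPM (SD, n = 5) of GR KO control tumors, and parental tumors held 1114 ± 242.5 CPM (SD, n = 5) with GC and 358.5 ± 45.54 CPM (SD, n = 5) without. *Sgk1* had the most reads in this list.

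Most of the 10 melanocyte genes were close to silent in culture. *Tyr*, *Dct*, *Mlana*, *Sox10* and *Kit* had 0 reads in all 11 cultures, and *Ednrb* had a single read in 1 of them. *Mitf* was the only gene of the 10 above the floor in every culture, and *Tyrp1*, *Pmel* and *Pax3* rose above it in 1, 1 and 3 cultures, with no count over 8. In tumors, *Mitf*, *Dct*, *Kit* and *Ednrb* were above the floor in all 20 libraries, *Pmel* and *Sox10* in 19, *Pax3* in 12, *Mlana* in 6 and *Tyrp1* in 5. *Tyr* had 0 reads in all 31 libraries, that is 0 of 588038724 reads, and so stayed at the floor everywhere. With no read of *Tyr* in any library, these data do not show whether 3′ counting would have caught its transcript. Each tumor had 6 to 9 of the 10 genes above the floor and each culture 1 to 3. In bulk RNA, fewer cells of a type and less RNA per cell cannot be told apart.

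**Figure D1:**
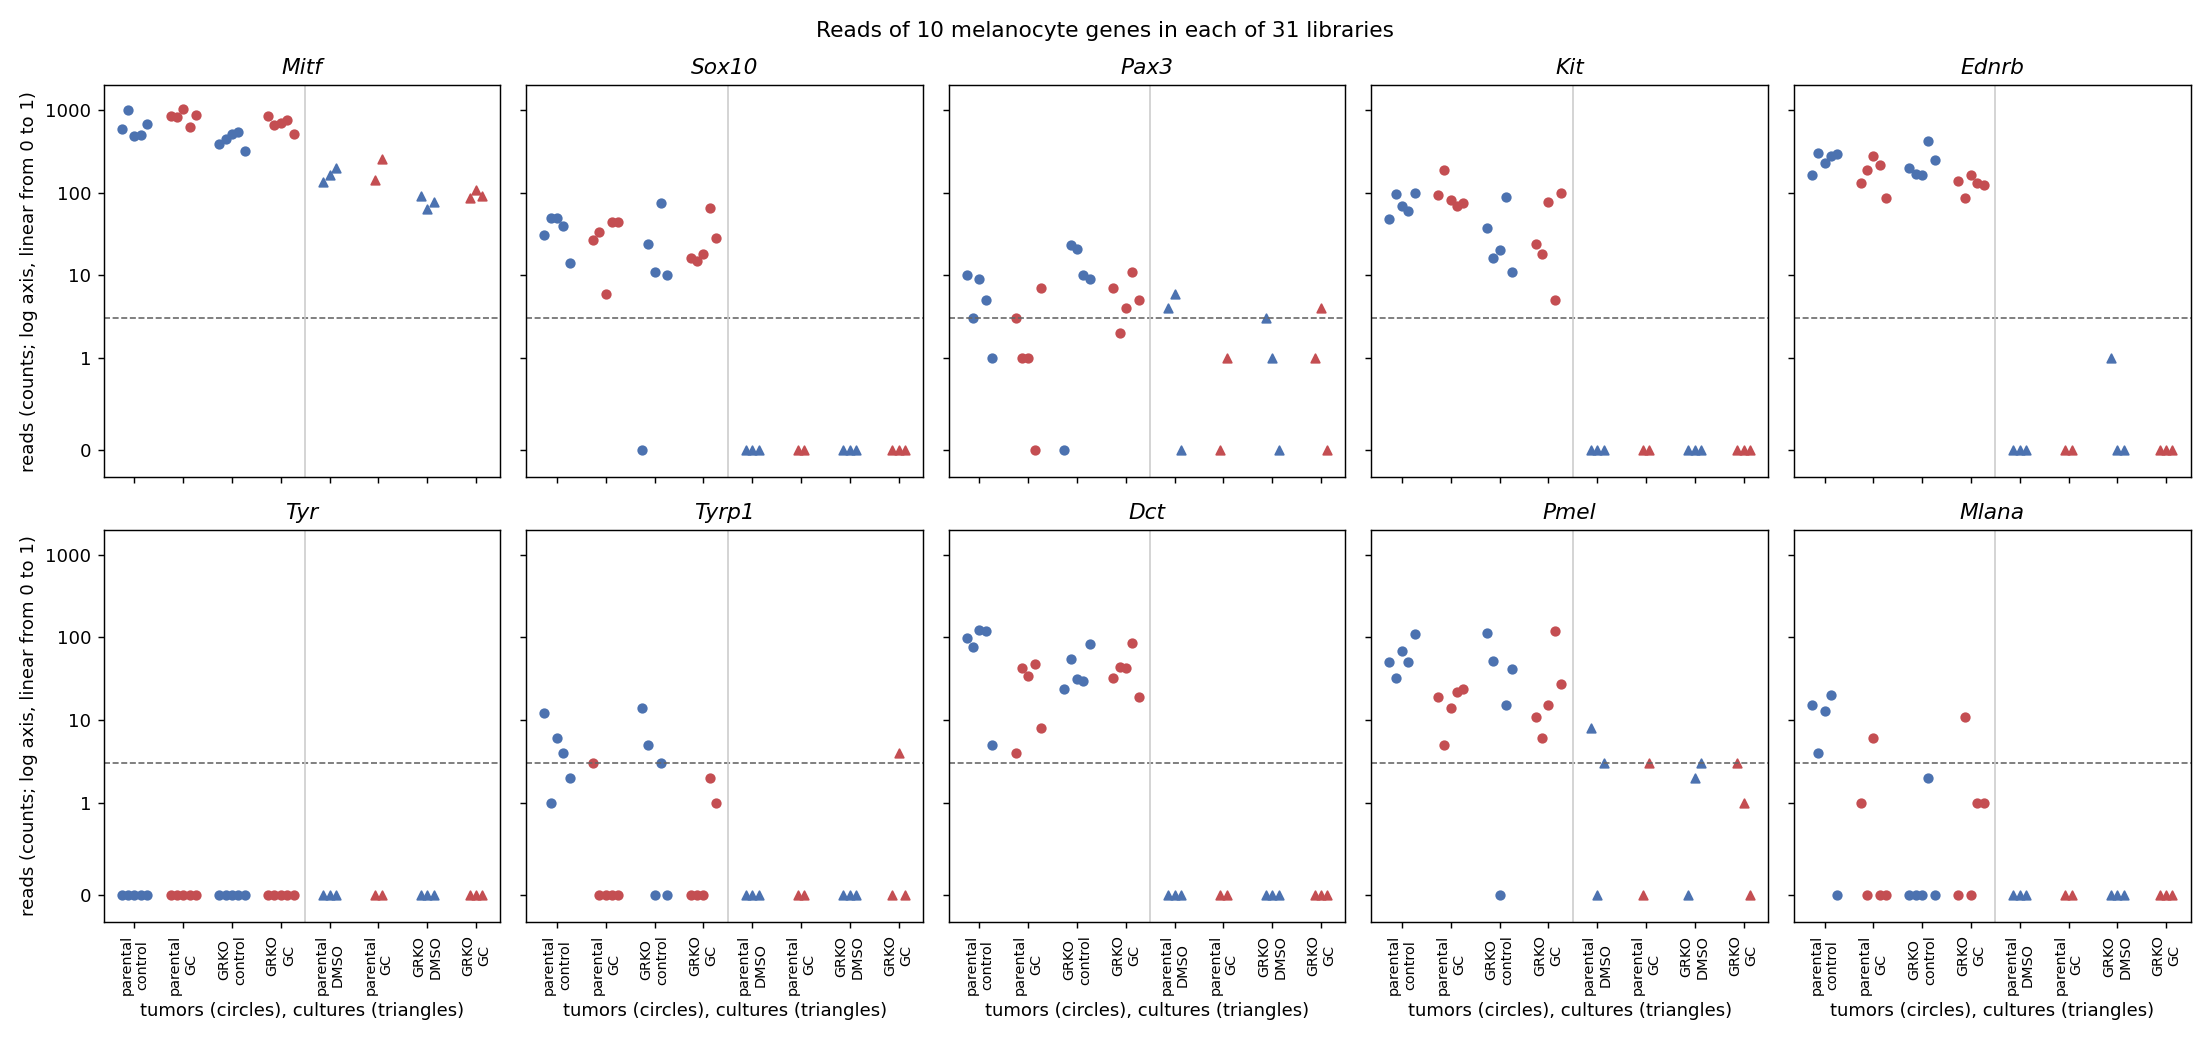
Each panel shows the read counts of 1 of the 10 melanocyte genes (vertical axis, log scale, linear from 0 to 1) in each of the 31 libraries, with tumors as circles and cultures as triangles in the 8 groups along the horizontal axis (blue, control or DMSO; red, GC) and the floor of 3 counts as a dashed line. *Mitf* is above the floor in all 31 libraries and *Tyr* is at 0 in all of them, while *Sox10*, *Kit* and *Dct* are at 0 in the 11 cultures.

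*Mitf* (ENSMUSG00000035158, GRCm38 chr6:97807052-98021349, plus strand) encodes the master transcription factor of the melanocyte lineage. Promoter sequences are listed at several starts of this gene, and reads at the 3′ end do not tell transcripts from different starts apart. The part of host cells in the tumor reads of *Mitf* was not tested. Counts of *Mitf* were 580, 1002, 489, 501 and 680 in parental control tumors, and 835, 826, 1025, 614 and 864 in parental tumors with GC. GR KO control tumors had 390, 440, 510, 542 and 320 counts, and GR KO tumors with GC had 841, 657, 686, 746 and 511. These tumor groups overlapped in level, at 32.0 ± 9.72, 41.5 ± 7.035, 25.5 ± 5.81 and 32.7 ± 6.43 CPM (SD, n = 5 each) in the same order. Parental cultures had 134, 163 and 199 counts with DMSO and 141 and 254 with GC. GR KO cultures had 92, 63 and 76 with DMSO and 87, 108 and 90 with GC. Every GR KO culture lay below every parental culture, at 4.06 ± 0.876 CPM with DMSO and 5.36 ± 0.425 CPM with GC (SD, n = 3 each) against 10.6 ± 1.55 CPM (SD, n = 3) and 10.95 ± 1.39 CPM (SD, n = 2) in parental cells. Ordered by mean level, parental GC tumors came first, then GR KO GC, parental control and GR KO control tumors, none of which was separated from the next by their SDs. Parental GC and parental DMSO cultures followed, not separated from each other, then GR KO GC cultures and last GR KO DMSO cultures.

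**Figure D2:**
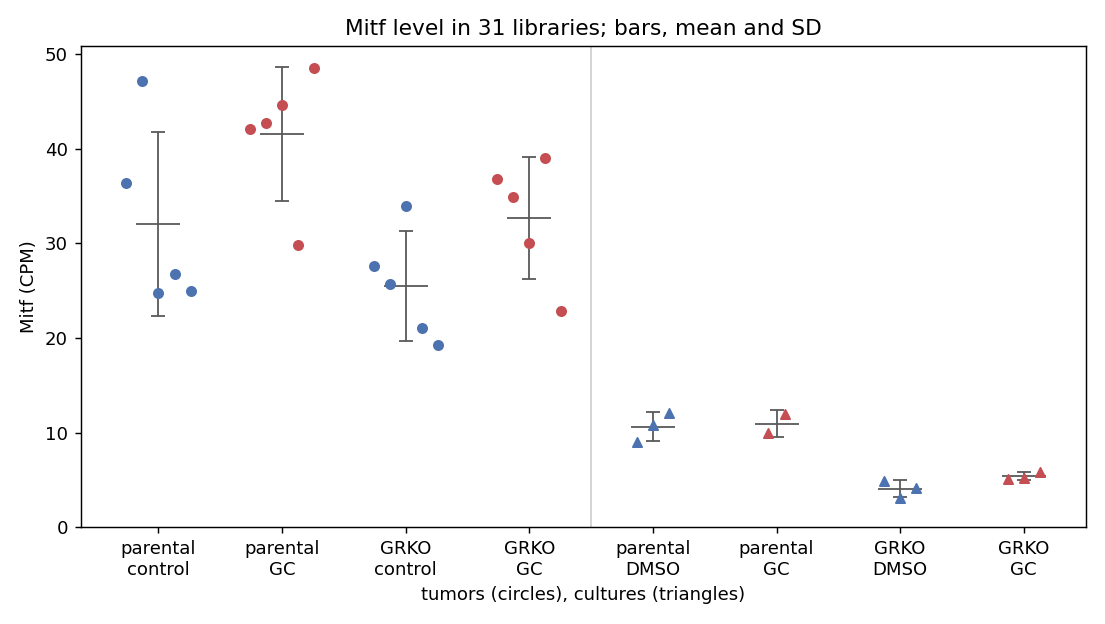
The level of *Mitf* in CPM (vertical axis) is plotted for each of the 31 libraries in the 8 groups along the horizontal axis (circles, tumors; triangles, cultures; blue, control or DMSO; red, GC), with horizontal bars for the mean and vertical bars for the SD. GR KO cultures sit at 4.06 and 5.36 CPM on average, below the 10.6 and 10.95 CPM of parental cultures, and all tumors lie above all cultures.

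*Sox10* (ENSMUSG00000033006, chr15:79154908-79165240, minus strand) encodes a neural crest factor that activates *Mitf* and also marks Schwann cells. Parental control tumors had 31, 49, 49, 39 and 14 counts and parental GC tumors 27, 33, 6, 44 and 44. GR KO control tumors had 0, 24, 11, 74 and 10 counts and GR KO GC tumors 16, 15, 18, 65 and 28. The groups overlapped, and replicate 4 was the highest tumor in both GR KO groups. Mean levels ran from 1.12 ± 1.095 CPM in GR KO control tumors to 1.865 ± 0.783 CPM in parental control tumors (SD, n = 5 each), no neighbours among the 4 groups being separated by their SDs.

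*Pax3* (ENSMUSG00000004872, chr1:78101267-78197134, minus strand), a factor of early melanoblasts, was at the floor in 8 of 20 tumors and 8 of 11 cultures. Its counts were 10, 3, 9, 5 and 1 in parental control tumors, 3, 1, 1, 0 and 7 in parental GC tumors, 0, 23, 21, 10 and 9 in GR KO control tumors and 7, 2, 4, 11 and 5 in GR KO GC tumors. The cultures had 0 to 6 counts, and the groups overlapped throughout.

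*Kit* (ENSMUSG00000005672, chr5:75574916-75656722, plus strand) encodes the receptor of stem cell factor on melanoblasts and mast cells. Parental control tumors had 48, 96, 68, 59 and 98 counts and parental GC tumors 93, 185, 81, 68 and 74, while GR KO control tumors had 37, 16, 20, 88 and 11 and GR KO GC tumors 24, 18, 76, 5 and 98. In level, 4 of 5 GR KO control tumors lay below every parental control tumor, and 3 of 5 GR KO GC tumors below every parental GC tumor. Means were 3.54 ± 0.590 and 5.045 ± 2.58 CPM in parental control and GC tumors and 1.79 ± 1.17 and 1.99 ± 1.76 CPM in GR KO control and GC tumors (SD, n = 5 each), with no neighbours in this order separated.

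Mast cells carry KIT on their surface, so a mast cell list (*Cpa3*, *Tpsb2*, *Tpsab1*, *Mcpt4*, *Cma1*, *Ms4a2*, *Fcer1a*, *Hdc*, *Gata2*, *Mrgprb1*) was summed in each tumor. The sums were 191, 189, 148, 176 and 237 CPM in parental control tumors and 246, 361, 235, 318 and 288 CPM in parental GC tumors. GR KO tumors held 150, 173, 111, 152 and 130 CPM without GC and 114, 146, 115, 143 and 163 CPM with it. All 10 genes of the list were above the floor in at least 1 tumor, *Tpsb2* had the most reads, and 8 of 10, with *Cpa3*, *Tpsb2* and *Mcpt4* among them, were at 0 in every culture. The highest *Kit* level of the 20 tumors and the highest mast cell sum were in the same library, replicate 2 of the parental GC tumors. The part of mast cells in the *Kit* reads was not tested.

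*Ednrb* (ENSMUSG00000022122, chr14:103814625-103844402, minus strand) encodes the endothelin receptor of melanoblasts, which some vascular and stromal cells also carry. Parental control tumors had 162, 303, 227, 278 and 289 counts and parental GC tumors 131, 189, 273, 214 and 87. GR KO control tumors had 196, 168, 165, 421 and 248 counts, and GR KO GC tumors 136, 86, 163, 130 and 123. Scaled for depth, every GR KO tumor with GC lay below every GR KO control tumor, at 5.985 ± 1.025 against 13.2 ± 2.71 CPM (SD, n = 5 each), while the parental groups overlapped at 8.70 ± 2.88 CPM with GC and 12.3 ± 2.14 CPM without (SD, n = 5 each).

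With GC, edgeR called 2 of 10 endothelial genes lower in GR KO tumors (3 by DESeq2), where 3.71% of all genes were lower, and 0 of 10 in parental tumors (1 by DESeq2), where 0.779% of all genes were DEGs. For the difference of these effects both tools called 0 of 10. The endothelial list (*Pecam1*, *Cdh5*, *Kdr*, *Tie1*, *Emcn*, *Cldn5*, *Tek*, *Vwf*, *Erg*, *Egfl7*) summed to 183, 160, 152, 166 and 166 CPM in GR KO control tumors and 77.1, 90.7, 73.3, 93.7 and 76.6 CPM in GR KO GC tumors. In parental tumors the sums were 104, 93.7, 75.7, 104 and 79.2 CPM without GC and 61.7, 69.2, 49.1, 68.6 and 60.5 CPM with GC, so the GC sums lay below the control sums in both lines. All 10 genes were above the floor in at least 1 tumor and *Egfl7* had the most reads, which cultures also expressed (25.2 CPM on average in parental cells with DMSO), while *Cldn5*, *Tek* and *Erg* were at 0 in all cultures. The part of endothelial cells in the *Ednrb* difference was not tested.

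Among the enzyme genes, *Tyr* (ENSMUSG00000004651, chr7:87424771-87493512, minus strand) gave no read. *Tyrp1* (ENSMUSG00000005994, chr4:80834123-80851719, plus strand) had 12, 1, 6, 4 and 2 counts in parental control tumors, 14, 5, 0, 3 and 0 in GR KO control tumors, at most 3 in any GC-treated tumor and 4 in 1 GR KO culture with GC, the other 10 cultures being at 0.

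*Dct* (ENSMUSG00000022129, chr14:118012790-118052244, minus strand), which encodes dopachrome tautomerase, had 98, 77, 121, 118 and 5 counts in parental control tumors and 4, 43, 34, 47 and 8 in parental GC tumors. GR KO control tumors had 24, 55, 31, 30 and 84 counts and GR KO GC tumors 32, 44, 42, 85 and 19. In parental control tumors, 4 of 5 libraries held 3.62 to 6.29 CPM and the remaining one, replicate 5, held 0.183 CPM, so that the control and GC groups overlapped through this library. Means were 4.48 ± 2.65 and 1.33 ± 0.971 CPM in parental control and GC tumors and 2.635 ± 1.54 and 2.17 ± 1.38 CPM in GR KO control and GC tumors (SD, n = 5 each).

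*Pmel* (ENSMUSG00000025359, chr10:128704195-128720238, plus strand) had 50, 32, 68, 50 and 111 counts in parental control tumors and 19, 5, 14, 22 and 24 in parental GC tumors. Every parental GC tumor lay below every parental control tumor in level, at 0.848 ± 0.422 against 2.96 ± 0.961 CPM (SD, n = 5 each). GR KO control tumors ranged from 0 to 114 counts, with values of 114, 52, 0, 15 and 41, and GR KO GC tumors from 6 to 118, with values of 11, 6, 15, 118 and 27, so these groups overlapped. *Cdk2* and *Dgka* lie on the opposite strand and overlap the span of *Pmel*, and counting with the default parameters given in the methods ignores strand, so reads from the 2 strands there cannot be told apart.

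*Mlana* (ENSMUSG00000024806, chr19:29697824-29708634, plus strand) had 15, 4, 13, 20 and 0 counts in parental control tumors, while 13 of the 15 tumors of the other groups were at the floor and the remaining 2 had 6 and 11 counts. These were replicate 3 of the parental GC tumors and replicate 2 of the GR KO GC tumors.

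Tumors grow in the skin, where pigment cells of hair follicles express the same genes, so a list of hair follicle genes (*Krt25*, *Krt27*, *Krt28*, *Krt71*, *Krt72*, *Krt73*, *Tchh*, *Krt35*, *Krt85*, *Hoxc13*, *Msx2*, *Foxn1*, *Lgr5*, *Padi3*) was summed in each tumor. Parental control tumors held 306, 15.2, 117, 163 and 10.4 CPM and parental GC tumors 6.25, 45.8, 55.9, 3.20 and 5.11 CPM. GR KO control tumors held 144, 45.1, 3.79, 9.53 and 10.9 CPM and GR KO GC tumors 7.69, 9.94, 7.61, 170 and 10.1 CPM. Replicate 5 of the parental control tumors was lowest in its group both in this sum and in *Dct*, *Mlana* and *Sox10*, but highest in *Pmel*. Replicate 4 of the GR KO GC tumors was highest in its group in this sum and in *Dct*, *Pmel* and *Sox10*, and replicate 1 of the GR KO control tumors in this sum, *Pmel* and *Tyrp1*. That last library had 0 counts of *Sox10* and of *Pax3*. Replicate 2 of the parental control tumors, with a sum of 15.2 CPM, held 3.62 CPM of *Dct* and 49 counts of *Sox10*. *Krt85* is not among the genes counted, and 12 of the other 13 were above the floor in at least 1 tumor. *Krt25* had the most reads, *Msx2* was at the floor in every tumor, and 8 of 13, with *Krt25*, *Krt71* and *Padi3* among them, were at 0 in every culture. The part of follicles in the pigment gene reads was not tested.

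**Figure D3:**
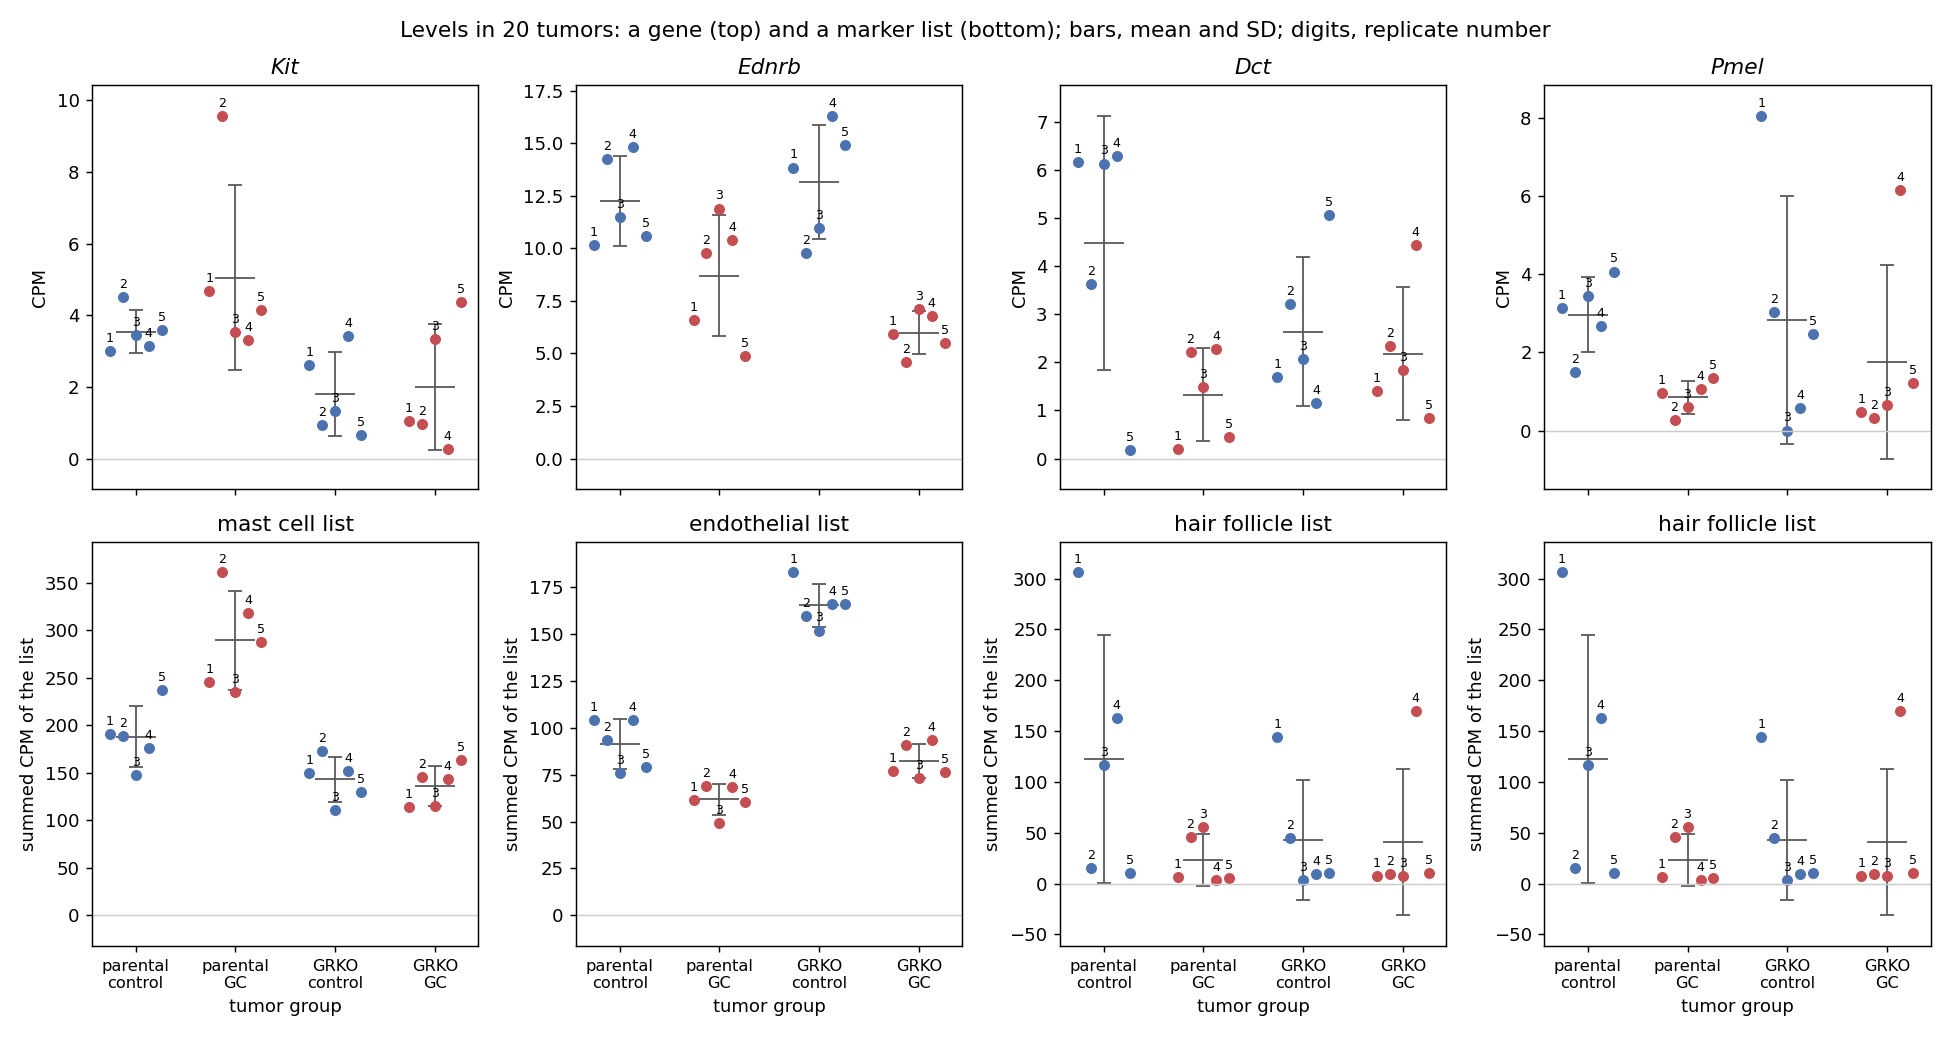
The top panels show *Kit*, *Ednrb*, *Dct* and *Pmel* in CPM and the bottom panels the summed CPM of a marker list (mast cell, endothelial, and hair follicle shown for both *Dct* and *Pmel*) in each of 20 tumors by group, with digits for the replicate, horizontal bars for the mean and vertical bars for the SD. The *Ednrb* level is 7.131 CPM or less in all 5 GR KO GC tumors, whose endothelial sums lie between 73.3 and 93.7 CPM against 152 to 183 CPM in GR KO control tumors.

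The first comparison asked whether GC treatment changed the melanocyte genes in tumors whose cancer cells keep the receptor. *Tyr* and *Tyrp1* did not reach 0.5 CPM in 3 tumors and were not tested. *Mlana* passed this filter only with the parental control tumors, the group where it was highest, so its tests are not used where that group is compared. *Pax3* was highest in the GR KO control tumors but passed without them too. Because it had few reads, its tests are likewise not used where that group is compared. It was not a DEG in any tumor comparison by edgeR or DESeq2. By edgeR, 0 of the 7 genes other than *Mlana* were DEGs (adjusted p under 0.05 over all genes tested, with levels at least 1.5-fold apart), against 0.779% of the 15919 genes tested. At an unadjusted p under 0.05 there was 1 of the 7, *Dct*, against 2249 of all genes, and DESeq2 called 376 of all genes. DESeq2 gave an adjusted p for 4 of the 7 (*Mitf*, *Dct*, *Kit* and *Ednrb*) and called 0 of them. It leaves this value out for genes with few reads, so its counts of 0 cover fewer genes than those of edgeR. With GC, *Dct* had a log2 fold change of -1.75 (SE 0.72, adjusted p = 0.276 from edgeR), and *Pmel* had -1.80 (SE 0.91, adjusted p = 0.375 from edgeR). For *Pmel*, 5 of 5 GC tumors lay below all controls. *Ednrb* stood at -0.50 (SE 0.27, adjusted p = 0.410 from edgeR) and *Mitf* at 0.37 (SE 0.22, adjusted p = 0.461 from edgeR). The values of *Sox10* (-0.24, SE 0.80) and *Kit* (0.50, SE 0.58) had wide errors, as had those of *Dct* and *Pmel*. A change of several fold in any of these genes could not have been told from none. *Pax3*, with few reads, had an adjusted p of 0.679 from edgeR.

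In GR KO tumors, where the receptor gene was edited in the cancer cells but not in the host cells, GC treatment lowered *Ednrb*. It was the 1 DEG among the 7 melanocyte genes other than *Pax3* that were tested, against 6.42% of all genes that were DEGs and 3.71% that were lower DEGs. Its log2 fold change was -1.14 (SE 0.27, adjusted p = 0.0157 from edgeR and 0.000661 from DESeq2), with 5 of 5 GC tumors below all 5 controls. In a fit of these 2 groups alone *Ednrb* kept -1.14, but its adjusted p was 0.0556, with edgeR values from 0.0171 to 0.0462 when each of the 10 tumors was left out in turn. *Mitf* had 0.35 (SE 0.22, adjusted p = 0.338 from edgeR), *Dct* -0.29 (SE 0.71, adjusted p = 0.842 from edgeR) and *Pmel* -0.70 (SE 0.88, adjusted p = 0.667 from edgeR). *Sox10* (0.30, SE 0.80) and *Kit* (0.16, SE 0.58) again had wide errors, as had *Dct* and *Pmel*. The sign of each of these genes depended on single tumors. With 1 tumor left out, *Dct* ranged from -0.72 to 0.0873 and *Pmel* from -2.08 to 0.21. Genes of the endothelial list were among those that fell in the same comparison: *Kdr*, a receptor of vascular growth factor, by -1.32 (SE 0.26) and *Egfl7*, a protein secreted by vessels, by -1.22 (SE 0.29) on the log2 scale, and 2 of 10 endothelial genes in all were lower. Cultures also expressed *Egfl7*, at 25.2 CPM on average in parental and 10.3 CPM in GR KO cells with DMSO. The part of cancer cells in its tumor reads was not tested.

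The effect of GC was not shown to differ between parental and GR KO tumors for any melanocyte gene. By edgeR, 0 of the 6 genes other than *Mlana* and *Pax3* were DEGs for the difference of the GC effects, against 0.195% of all genes. Of these 6 genes, 0 had an unadjusted p under 0.05, against 3192 of all genes, and DESeq2 called 784 of all genes and 0 of the 3 with an adjusted p (*Mitf*, *Kit* and *Ednrb*). For *Ednrb* the GC effect was 0.64 higher in parental tumors on the log2 scale (SE 0.38, adjusted p = 0.338 from edgeR), for *Dct* the difference was -1.46 (SE 1.00, adjusted p = 0.419 from edgeR), and for *Mitf* 0.02 (SE 0.31, adjusted p = 0.983 from edgeR).

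No melanocyte gene passed the threshold between GR KO and parental tumors. Without GC, 0 of the same 6 genes were DEGs by edgeR, against 2.25% of all genes. At an unadjusted p under 0.05 there were 0 of the 6, against 3180 of all genes, and DESeq2 called 0 of the 6 and 1001 of all genes. *Kit* had a log2 fold change of -0.98 (SE 0.59, adjusted p = 0.355 from edgeR), *Mitf* -0.32 (SE 0.22, adjusted p = 0.432 from edgeR) and *Ednrb* 0.11 (SE 0.27, adjusted p = 0.852 from edgeR). Under GC, 0 of 8 were DEGs by edgeR between GR KO and parental tumors, against 0.634% of all genes. Here 1 of the 8, *Kit*, had an unadjusted p under 0.05, against 1816 of all genes, and DESeq2 called 293 of all genes and 0 of the 6 with an adjusted p, which *Mlana* and *Pax3* lacked. *Kit* had -1.32 (SE 0.59, adjusted p = 0.393 from edgeR) and *Ednrb* -0.53 (SE 0.27, adjusted p = 0.453 from edgeR). In this last comparison the mast cell protease genes *Mcpt4* (-1.38, SE 0.24, adjusted p = 0.00517 from edgeR) and *Tpsb2* (-1.29, SE 0.26, adjusted p = 0.0194 from edgeR) were lower in GR KO tumors, 2 of 9 mast cell genes tested with a median of -0.71. The median over the 8 genes was 0.26 in GC tumors and over all genes 0.01. All these tumor comparisons share groups with each other.

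In culture, *Mitf* alone had enough reads to be tested, and GR KO cells had less of it. With DMSO it was lower by a log2 fold change of -1.36 (SE 0.23, adjusted p = 0.00380 from edgeR and 2.7e-06 from DESeq2), with all 3 GR KO cultures below all 3 parental ones, which makes it 1 DEG of 1 tested against 8.22% of all 12525 genes tested and 6.04% that were lower. With GC it was lower by -1.02 (SE 0.25, adjusted p = 0.0360 from edgeR and 0.00412 from DESeq2), again with no overlap, 1 DEG of 1 tested against 5.55% of all genes and 3.78% that were lower. The second of these calls was lost when any of the 3 GR KO cultures was left out (adjusted p from 0.0645 to 0.118 by edgeR). Without 1 of the 2 parental cultures, the log2 fold change was -1.13 or -0.89. This call was also lost with the 2 groups alone (adjusted p = 0.120 by edgeR), with a replicate block (-1.08, adjusted p = 0.0658 by edgeR) and without a filter on low counts (adjusted p = 0.0615 by edgeR). The first was kept in all 6 fits with 1 culture left out and in all 8 other alternatives (adjusted p of at most 0.0202 by either tool, edgeR or DESeq2). Since GR KO cells are a single clone, the edit and other differences of the clone cannot be told apart.

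GC treatment gave no *Mitf* call in culture. In parental cells 0 of 1 was a DEG by edgeR, against 0.878% of all genes, with a log2 fold change of 0.06 (SE 0.25, adjusted p = 0.937 from edgeR). In GR KO cells it was 0 of 1, against 0% of all genes, with 0.41 (SE 0.23, adjusted p = 0.976 from edgeR) and all 3 GC cultures above all 3 DMSO cultures. The difference of these effects was -0.34 (SE 0.34, adjusted p = 0.671 from edgeR), again 0 of 1 against 0.295% of all genes. *Mitf* had no unadjusted p under 0.05 in these 3 comparisons, whereas 1062, 237 and 1075 of all genes did, and DESeq2 called 0 of 1 in each and 251, 0 and 128 of all genes.

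Whole tumors and cultures differ in host cells, growth conditions and experiment at once, so these sources cannot be told apart. Most of the genes passed the filter only through the tumors, so their calls are not counted here and the genes are read as levels. *Mitf*, the 1 gene above the floor in all 31 libraries, was higher in parental control tumors than in parental DMSO cultures by a log2 fold change of 1.64 (SE 0.26, adjusted p = 4.22e-06 from edgeR), where 46.7% of all 16273 genes tested were DEGs and 30.4% were higher. In GR KO samples it was higher by 2.68 (SE 0.28, adjusted p = 1.37e-09 from edgeR), where 54.8% of all genes were DEGs and 34.2% were higher. Because most of these genes had no reads in culture, their folds are lower bounds against 3 counts per library: in parental samples at least 63.2-fold for *Ednrb*, at least 23.1-fold for *Dct*, at least 18.2-fold for *Kit*, at least 9.61-fold for *Sox10* and at least 2.94-fold for *Mlana*. In GR KO samples the bounds were at least 16.7-fold for *Dct*, at least 11.4-fold for *Kit* and at least 7.11-fold for *Sox10*. For *Tyrp1* the bounds were low, at least 1.43-fold in parental and at least 1.77-fold in GR KO samples. All these bounds use the mean of the tumors and leave out the spread between them. *Tyrp1* was itself at the floor in 2 of 5 parental and 3 of 5 GR KO control tumors, and *Mlana* in 1 of 5 parental control tumors. *Mlana* has no bound in GR KO samples, since control tumors held 0.0155 CPM on average, below the culture floor of 0.158 CPM. *Mitf*, with reads in both, was 2.96 times higher in parental control tumors (95% counting interval 2.69 to 3.26) and 6.14 times higher in GR KO control tumors (5.36 to 7.06). *Pmel* was 12.8 times higher (7.03 to 25.8) and 28.6 times higher (12.1 to 89.0) in the same comparisons, the ratio of *Pax3* was 1.26 (0.595 to 2.91) and 10.1 (3.77 to 38.4), and *Ednrb* in GR KO samples, with 1 read in culture, had a ratio of 772 (138 to 30500). The GR KO ratios of *Pmel*, *Pax3* and *Ednrb* rest on 5, 4 and 1 reads in cultures that were all at the floor, and the parental ratio of *Pmel* on 11 reads, 8 of them in 1 culture, so the size of these ratios is poorly known.

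Other genes of pigment cells gave a fuller view of the cultures. A list of 16 melanosome and pigmentation genes (*Oca2*, *Slc45a2*, *Slc24a5*, *Gpr143*, *Rab27a*, *Rab32*, *Rab38*, *Mlph*, *Myo5a*, *Trpm1*, *Gpnmb*, *Tspan10*, *Bace2*, *Atp7a*, *Hps4*, *Lyst*) had 11 genes above the floor in at least 1 culture, and *Oca2*, *Slc45a2*, *Gpr143* and *Tspan10*, which are pigment cell genes, were at 0 in every culture. *Myo5a*, a motor protein gene of many cell types, had the most reads. The summed level was 176 ± 20.25 CPM (SD, n = 3) in parental cells with DMSO, 173 ± 7.83 CPM (SD, n = 3) in GR KO cells with DMSO and 217.5 ± 25.58 CPM (SD, n = 5) in parental control tumors. By edgeR, 0 of 12 genes tested were DEGs in each of the 5 tumor comparisons, and DESeq2 also called 0 in each. In cultures, *Mlph*, which links melanosomes to the motor, was lower in GR KO cells with DMSO by -2.49 (SE 0.35, adjusted p = 0.00113 from edgeR) and *Bace2* by -4.49 (SE 1.12, adjusted p = 0.0290 from edgeR). These were 2 of 9 tested, with a median of 0.08. With so large a fold, *Bace2* may have passed the filter only through parental cells, so its call is not used. With GC, *Gpnmb* was higher in GR KO than in parental cells by 0.83 (SE 0.22, adjusted p = 0.0476 from edgeR), 1 of 9 tested with a median of -0.07, where DESeq2 called 1 higher and 3 lower. Over all genes the medians were 0.01 and 0.02. For these and the following lists in culture, the shares of all genes that were DEGs between GR KO and parental cells were 8.22% with DMSO (6.04% lower) and 5.55% with GC (3.78% lower).

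Regulators and signals of the lineage (*Mc1r*, *Edn3*, *Kitl*, *Asip*, *Pomc*, *Lef1*, *Creb1*, *Zeb2*, *Snai2*, *Foxd3*, *Sox5*, *Sox9*, *Tfap2a*, *Irf4*, *Usf1*, *Tfe3*, *Tfec*) formed a list of 17, of which 16 were counted and *Asip* was not. *Sox9*, a neural crest factor, had the most reads, with 350 CPM on average in parental cells with DMSO and 141 CPM in GR KO cells with DMSO. It was lower in GR KO cells with DMSO by -1.29 (SE 0.16, adjusted p = 0.000515 from edgeR). *Tfap2a*, a partner of MITF at pigment genes, had -8.01 with DMSO (SE 1.06, adjusted p = 0.00378 from edgeR) and -7.68 with GC (SE 1.12, adjusted p = 0.00715 from edgeR). Folds of this size point to few or no reads in GR KO cells. *Tfap2a* may have passed the filter only through parental cells, where it was higher, so its calls are not used. Counts that include it were 2 lower of 11 tested with DMSO (median -0.54) and 1 of 11 with GC (median -0.63), where DESeq2 called 4 lower. In tumors, *Snai2*, a factor of migrating neural crest cells, was higher with GC in GR KO tumors by 0.93 (SE 0.28, adjusted p = 0.0432 from edgeR), 1 of 13 tested with a median of 0.08 (DESeq2 called 2), against 6.42% of all genes. By edgeR there were 0 of 13 in the other 4 tumor comparisons, where DESeq2 called at most 1.

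Further known targets of MITF (*Cdk2*, *Bcl2*, *Bcl2a1a*, *Met*, *Tbx2*, *Ppargc1a*, *Rragd*, *Birc7*, *Capn3*, *Acp5*, *Asah1*, *Gmpr*, *St3gal6*, *Gpr137b*) summed to 195 ± 10.9 CPM in parental and 197 ± 9.715 CPM in GR KO cells with DMSO (SD, n = 3 each), with *Asah1*, a lysosomal ceramidase gene, in the lead. By edgeR 0 of 8 tested were DEGs between these cultures, where DESeq2 called 1, and the median was 0.08. With GC, *Gpr137b* (1.87, SE 0.29, adjusted p = 0.00223 from edgeR) and *Gmpr* (1.10, SE 0.25, adjusted p = 0.0245 from edgeR) were higher in GR KO than in parental cells, 2 of 8 with a median of 0.16. *Acp5*, an enzyme gene of osteoclasts and macrophages, had a lower level in GR KO control tumors, by -1.25 (SE 0.30, adjusted p = 0.0309 from edgeR), 1 of 12 tested with a median of 0.24, against 2.25% of all genes. DESeq2 called 1 higher and 1 lower there. In the other 4 tumor comparisons 0 of 12 were DEGs by edgeR and by DESeq2, and for GC in cultures 0 of 8 were DEGs by edgeR, where DESeq2 called 2 in parental and 0 in GR KO cells.

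Genes that mark the undifferentiated melanoma state (15 genes, among them *Axl*, *Ngfr*, *Egfr*, *Zeb1*, *Tcf4*, *Wnt5a* and *Cyr61*) were widely detected. All 15 were above the floor in at least 1 culture and 13 in every culture, and the same numbers held for tumors. They summed to 3235 ± 124.5 CPM in parental and 3773 ± 298 CPM in GR KO cells with DMSO (SD, n = 3 each), and *Tcf4* had the most reads. In GR KO cells with DMSO, edgeR called 3 of 13 tested higher with a median of 0.27 (DESeq2 3 higher and 1 lower), among them the matrix protein gene *Thbs1* by 0.99 (SE 0.17, adjusted p = 0.00407 from edgeR) and the collagen cross-linking enzyme gene *Loxl2* by 0.61 (SE 0.13, adjusted p = 0.0126 from edgeR). With GC, *Thbs1* was higher in GR KO than in parental cells by 1.63 (SE 0.20, adjusted p = 0.000529 from edgeR), 1 of 13 with a median of 0.26 (DESeq2 1 higher and 1 lower). GC called 0 of 13 in either culture by edgeR and by DESeq2.

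In tumors, *Cyr61*, a matrix gene of the same list, was higher with GC in parental tumors by 1.70 (SE 0.36, adjusted p = 0.0197 from edgeR), 1 of 15 tested with a median of 0.14, against 0.779% of all genes. Its GC effect was larger in parental than in GR KO tumors by 2.45 (SE 0.50, adjusted p = 0.0392 from edgeR), 1 of 15 with a median difference of -0.33, against 0.195% of all genes, where DESeq2 called 2 higher and 1 lower. Between GR KO and parental control tumors *Cyr61* was higher by 1.63 (SE 0.36, adjusted p = 0.0252 from edgeR) and *Wnt5a*, a signal of invasive melanoma cells, lower by -0.81 (SE 0.21, adjusted p = 0.0399 from edgeR), 2 of 15 with a median of -0.16, against 2.25% of all genes, where DESeq2 called 2 higher and 1 lower.

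Neural crest and Schwann cell genes, which share *Sox10* with melanocytes, were summed as a list of 15 (among them *Mbp*, *Pmp22*, *S100b*, *Erbb3*, *Nes* and *Sox2*). Parental control tumors held 1090, 565, 688, 664 and 817 CPM and parental GC tumors 569, 1260, 550, 1570 and 701 CPM, while GR KO control tumors held 1780, 1380, 932, 520 and 1060 CPM and GR KO GC tumors 561, 836, 566, 1010 and 552 CPM. Replicate 4 of the GR KO GC tumors, the highest of its group in *Sox10*, was also the highest in this sum. Replicate 4 of the GR KO control tumors, again the highest in *Sox10*, was the lowest in it. *Nes*, which stem cells, vessels and tumors also express, had the most reads, *Mal*, *Cdh19*, *Gfap*, *Foxd3* and *Tfap2b* were at 0 in every culture, and *Cdh19* was at the floor in every tumor. By edgeR 0 of 12 tested were DEGs in the 5 tumor comparisons, where DESeq2 called at most 1. In culture, *Nes* fell with GC in parental cells by -0.91 (SE 0.17, adjusted p = 0.0269 from edgeR), 1 of 5 with a median of -0.48, against 0.878% of all genes. GC gave 0 of 5 in GR KO cells. Between GR KO and parental cells that both had GC, 1 of 5 was lower in GR KO cells (*Pmp22*, -0.87, SE 0.14, adjusted p = 0.00262 from edgeR, median 0.41). Between the 2 lines with DMSO it was also 1 of 5 (*S100b*, -7.28, SE 1.38, adjusted p = 0.0106 from edgeR, median -0.52). So large a fold points to few or no reads of *S100b* in GR KO cells. *S100b* may have passed the filter only through parental cells, so its call is not used. The part of Schwann cells in the *Sox10* reads was not tested.

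Genes that mark host tissues were read in every tumor, and some of them changed with GC as well, where DEGs made up 6.42% of all genes in GR KO tumors and 0.779% in parental tumors. Fibroblast genes (*Col1a1*, *Col1a2*, *Col3a1*, *Pdgfra*, *Pdgfrb*, *Dcn*, *Lum*, *Fap*, *Thy1*, *Postn*) summed to 3710, 4100, 4660, 6910 and 5270 CPM in GR KO control tumors and to 10100, 8320, 11400, 7540 and 11400 CPM in GR KO GC tumors. In parental tumors the sums were 6920, 7570, 7190, 7660 and 7300 CPM without GC and 10900, 8580, 10900, 7890 and 10900 CPM with it. *Col3a1* had the most reads and all 10 genes were above the floor in every tumor. The cultures expressed them too, with 8 of 10 above the floor in at least 1 culture and 4 in every culture, and *Col3a1* at 201 CPM on average in parental cells with DMSO. By edgeR and DESeq2, 4 of 7 tested were lower in GR KO than in parental cells with DMSO (median -1.83). Among them, *Dcn* (-7.72, SE 1.19) and *Postn* (-6.69, SE 1.31) may have passed the filter only through parental cells. The part of cancer cells in the tumor reads of these genes was not tested. With GC in GR KO tumors 5 of 10 were higher with a median of 0.44, such as the collagen gene *Col1a2* by 1.83 (SE 0.30, adjusted p = 0.00191 from edgeR), while in parental tumors edgeR called 0 of 10, DESeq2 called 1 lower, and the median was 0.22. Endothelial medians were -0.93 in GR KO and -0.27 in parental tumors, where edgeR called 0 of 10 and DESeq2 1. Between GR KO and parental control tumors *Egfl7* (1.08, SE 0.29), which cultures also expressed, and *Kdr* (0.98, SE 0.26) were higher, at adjusted p of 0.0470 and 0.0472 from edgeR. These were 2 of 10 with a median of 0.98, against 2.25% of all genes.

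Keratinocyte genes (*Krt5*, *Krt14*, *Krt15*, *Krt1*, *Krt10*, *Lor*, *Trp63*, *Dsg3*, *Dsp*, *Perp*) measured skin in the samples, and *Krt14* led them. Their sums were 2130, 1950, 2260, 2070 and 4180 CPM in parental control tumors, 2540, 3020, 2340, 2610 and 2900 CPM in parental GC tumors, 4510, 5090, 4110, 2920 and 3010 CPM in GR KO control tumors and 1680, 1990, 2390, 2640 and 2180 CPM in GR KO GC tumors. Every GR KO GC tumor lay below every GR KO control tumor, as for *Ednrb*. In that comparison 2 of 10 genes were higher (*Krt1*, *Krt10*) and 2 lower (*Dsp*, *Krt14*), with a median of -0.21, and in parental tumors *Krt15* and *Lor* were higher with GC, 2 of 10 with a median of -0.15. *Krt1* and *Dsg3* were at 0 in all cultures.

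Macrophage genes (*Csf1r*, *Emr1*, *Adgre1*, *Cd68*, *C1qa*, *C1qb*, *Mrc1*, *Itgam*, *Fcgr1*, *Lyz2*, *Mertk*), with *C1qa* in the lead and *Adgre1* listed as *Emr1*, summed to 5760, 6340, 4480, 5120 and 4140 CPM in parental control tumors and 6530, 8730, 4030, 9580 and 5920 CPM in parental GC tumors. GR KO tumors held 9150, 8200, 6030, 7220 and 6800 CPM without and 5640, 8480, 5210, 5500 and 4850 CPM with GC. With GC 1 of 10 was higher in parental tumors (*Mertk*, median 0.48) and 1 of 10 in GR KO tumors (*Mrc1*, median 0.06), and *Emr1* and *Fcgr1* were at 0 in all cultures.

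Other leukocyte genes (11 genes, among them *Ptprc*, *Cd3e*, *Cd8a*, *Nkg7*, *Itgax* and *S100a8*) summed to 241, 305, 370, 229 and 1360 CPM in parental control tumors and 198, 207, 110, 217 and 169 CPM with GC. The GR KO sums were 651, 1130, 510, 512 and 1210 CPM without GC and 210, 226, 374, 306 and 244 CPM with it. *S100a8* had the most reads, and the parental control library with 1360 CPM was replicate 5, which was also the lowest of its group in *Dct*, *Mlana* and *Sox10*. With GC 2 of 9 were lower in parental tumors (*S100a8*, *S100a9*, median -0.34) and 2 of 9 in GR KO tumors (*Itgax*, *Cd3d*, median -1.18), and the T cell genes *Cd3e*, *Cd3d*, *Cd4* and *Cd8a* were at 0 in all cultures.

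Striated muscle genes (*Acta1*, *Ckm*, *Myh4*, *Myh1*, *Tnnt3*, *Tnni2*, *Mylpf*, *Actn3*, *Pvalb*, *Ttn*), led by *Acta1*, summed to 539, 443, 446, 401 and 418 CPM in parental control tumors and 762, 434, 426, 568 and 528 CPM in parental GC tumors. GR KO tumors held 542, 546, 653, 651 and 397 CPM without and 361, 459, 485, 338 and 341 CPM with GC. *Ttn* was higher with GC in parental tumors (1 of 10, median 0.60) and *Myh4* lower in GR KO tumors (1 of 10, median -0.66), and *Ckm*, *Myh4*, *Myh1* and *Pvalb* were at 0 in all cultures. The part of any of these host tissues in the melanocyte gene levels was not tested.

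Hair follicle genes gave 0 DEGs of 12 tested by edgeR and by DESeq2 in all 5 tumor comparisons, with medians of -2.29 for GC in parental tumors, 0.16 for GC in GR KO tumors and -1.37 between GR KO and parental control tumors. Mast cell genes gave 0 of 9 for GC in parental tumors (median 0.38, 1 by DESeq2) and 0 of 9 for GC in GR KO tumors (median 0.15, 1 by DESeq2). The GC-induced genes rose with GC in 4 of 6 cases in parental tumors (median 1.85), 4 of 6 in GR KO tumors (median 1.30) and 5 of 5 tested in parental cells (median 2.33), but in 0 of 5 in GR KO cells by edgeR and DESeq2 (median -0.23), and in culture edgeR called the effect larger in parental cells for 3 of 5 (*Tsc22d3*, *Per1* and *Sgk1*) and DESeq2 for 5 of 5.

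Genes whose levels followed a melanocyte gene most closely over the 20 tumors were named for the 7 genes above the floor in at least 10 tumors, by Spearman's rho of log2(CPM + 1) among 15918 genes, as a description over tumors that share 4 groups. *Mitf* was followed by *Abhd17b* (rho 0.881), *Jrkl* (0.868) and *Dzip3* (0.862), and *Ednrb* by *Slc4a11* (0.877), *H2-DMb2* (0.806) and *Kif21b* (0.794). For *Dct* they were *Rps15a-ps4* (0.859), *Mmgt2* (0.738) and *Pold3* (0.729), and for *Pmel* *Sesn3* (0.806), *Cntfr* (0.791) and *Hist1h4d* (0.717). *Kit* had *Mtus1* (0.820), *Trim44* (0.809) and *Lce6a* (0.808), *Sox10* had *Slc38a4* (0.776), *P2rx1* (0.770) and *Inca1* (0.744), and *Pax3* had *Fbxl21* (0.835), *BC051226* (0.821) and *Sorl1* (0.763). None of these 21 genes is in the marker lists above.

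The promoters of the enzyme genes carry a known motif of MITF, the M-box, and are shown because all 3 genes were at 0 or near 0 in cultures that had *Mitf* reads. In the RefSeq promoter sequences of GRCm38.p6, from 250 bases before to 50 bases after each start, 6 of the 10 genes had entries, 9 in all, and *Pmel*, *Mlana*, *Sox10* and *Pax3* had none. The M-box core TCATGTG was searched on both strands and found in the promoters of *Tyr* (chr7:87493463-87493762, minus strand), *Tyrp1* (chr4:80833963-80834262, plus strand) and *Dct* (chr14:118052197-118052496, minus strand), with 1, 1 and 2 matches. The same letters occur in 3.77% of all 32851 promoters, and the E-box CACGTG, held by 7.15% of all promoters, was in none of the 9. Capitals mark the M-box core, or its reverse complement at the first match of *Dct*, and a match is not evidence of binding.
Tyr promoter: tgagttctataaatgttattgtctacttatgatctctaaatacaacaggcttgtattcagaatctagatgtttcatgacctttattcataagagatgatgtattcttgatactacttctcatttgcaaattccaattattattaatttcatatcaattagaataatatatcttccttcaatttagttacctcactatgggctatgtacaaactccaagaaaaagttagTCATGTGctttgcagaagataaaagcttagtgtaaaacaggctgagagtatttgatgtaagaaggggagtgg
Tyrp1 promoter: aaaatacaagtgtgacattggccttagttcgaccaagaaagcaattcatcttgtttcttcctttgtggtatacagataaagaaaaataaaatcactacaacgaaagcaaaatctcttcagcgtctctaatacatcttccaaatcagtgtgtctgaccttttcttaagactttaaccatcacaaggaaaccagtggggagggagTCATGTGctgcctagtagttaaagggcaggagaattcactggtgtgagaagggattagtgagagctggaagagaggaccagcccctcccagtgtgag
Dct promoter: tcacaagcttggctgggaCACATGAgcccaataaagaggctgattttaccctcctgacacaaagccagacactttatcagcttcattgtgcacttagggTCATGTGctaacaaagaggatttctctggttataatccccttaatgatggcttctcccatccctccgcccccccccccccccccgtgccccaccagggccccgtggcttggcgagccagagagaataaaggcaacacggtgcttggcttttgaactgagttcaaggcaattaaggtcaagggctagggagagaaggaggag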

How the data were processed

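The counts are per-library gene counts as deposited: the authors trimmed single-end QuantSeq 3′ reads with Trim Galore 0.6.5, aligned them with STAR 2.6.1d and counted them with featureCounts on Ensembl release 75 (GRCm38). They do not name the strand setting but state default parameters, and the default of featureCounts ignores strand. The table has 0 other columns of per-sample values.

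The 10 melanocyte genes and the marker lists were chosen with earlier results of these data known. Genes with at least 0.5 CPM in at least 3 libraries of an experiment were tested with edgeR quasi-likelihood fits, with Benjamini-Hochberg adjustment over all genes tested. DEGs needed an adjusted p under 0.05 and levels at least 1.5-fold apart. The 8 alternatives were DESeq2, the size factors of DESeq2 in edgeR, no filter, a filter on 10 counts, no minimum fold, a minimum of 2-fold, a replicate block and the 2 groups alone. Each library was also left out in turn.

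Genes named were the 10, *Nr3c1* and GC-induced genes as label checks, and from each other list the gene with the most reads and up to 4 DEGs per comparison with the smallest adjusted p. For each of the 10 with more than 3 counts in at least 10 tumors, the 3 genes closest by Spearman correlation were added. Marker lists covered melanosome genes, lineage regulators, further MITF targets, undifferentiated state, neural crest and Schwann, mast, endothelial, keratinocyte, hair follicle, macrophage, fibroblast, striated muscle and leukocyte genes.

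Shared replicate numbers were checked for pairing by correlating residuals. Over 30 tumor pairs the mean was 0.0305 (range -0.410 to 0.264, 12 pairs over 0.1). Over 15 culture pairs it was 0.0127 (range -0.361 to 0.436, 6 pairs over 0.1). With means near 0, samples were not paired. Gene positions came from GENCODE M21. Tools were tested on simulated data. That test does not show that changes in genes with few reads, such as most of the melanocyte genes, would be found. A count of 0 DEGs among such genes therefore does not show that they were unchanged. Versions were R 4.3.3, edgeR 4.0.16, DESeq2 1.42.0, Python 3.11.15, numpy 2.4.6, scipy 1.17.1, pandas 2.3.3 and matplotlib 3.10.9.

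Limits: the tumors hold host cells, 1 GR KO clone was used, there were 2 parental GC cultures, and tumors and cultures are separate experiments. RNA was measured, not protein or pigment.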

Additional observations from a re-analysis of the deposited data

Results flagged for a closer look

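In 37 groups of 5 tumors, a sample was set apart when its gap to the next value exceeded 0.71 of the range. The chance rate of this cut-off, about 1 in 20 groups, was not measured for genes near the floor. It was exceeded in 6 groups. Groups with all 5 tumors at the floor are not among the 6. *Mlana* in GR KO control tumors and *Tyrp1* in parental GC tumors are such groups, each with reads in 1 library only. *Pmel* was 6.16 CPM in replicate 4 of the GR KO GC tumors (others 0.319 to 1.21 CPM), the library that also had the highest *Sox10*, at 3.39 CPM (others 0.699 to 1.25 CPM), and the highest hair follicle sum. *Sox10* was lowest in replicate 5 of the parental control tumors, at 0.513 CPM (others 1.95 to 2.48 CPM). *Kit* was 9.56 CPM in replicate 2 of the parental GC tumors (others 3.30 to 4.69 CPM). *Mlana* was 0.261 CPM in replicate 3 of the parental GC tumors, with 6 counts, and 0.585 CPM in replicate 2 of the GR KO GC tumors, with 11 counts.

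Among the genes named here, a GC effect differed between parental and GR KO samples by edgeR in 4 cases, of 31 such genes in tumors and 37 in cultures over all genes. The log2 difference was 2.45 for *Cyr61* in tumors (SE 0.50, adjusted p = 0.0392). In cultures it was 3.14 for *Tsc22d3* (SE 0.27, adjusted p = 0.000332), 3.00 for *Per1* (SE 0.37, adjusted p = 0.00415) and 1.30 for *Sgk1* (SE 0.18, adjusted p = 0.00927), all from edgeR. No sample was left out for any of this, and the causes were not tested.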

How the results depend on the processing

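The *Ednrb* call for GC in GR KO tumors went to 0 with the 2 groups alone (adjusted p = 0.0556 by edgeR). The *Mitf* call between GR KO and parental cultures with GC went to 0 of 1 with no filter, with a replicate block (-1.08, adjusted p = 0.0658 by edgeR), with the 2 groups alone, and when any 1 of the 5 cultures was left out. Leaving out 1 of the 2 parental GC cultures leaves 1, whose spread is taken from the other groups. The counts for the other tumor and culture comparisons stayed the same. Calls between tumors and cultures were not counted.

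Genes without a call changed sign when 1 library was left out. For GC in parental tumors, *Sox10* ranged from -0.47 to 0.044. For GC in GR KO tumors, *Dct* ranged from -0.72 to 0.0873, *Pmel* from -2.08 to 0.21, *Sox10* from -0.34 to 1.00 and *Kit* from -0.35 to 0.53. For the difference of these effects, *Mitf* ranged from -0.11 to 0.21, *Pmel* from -2.01 to 0.28, *Sox10* from -1.23 to 0.11, *Pax3* from -0.80 to 0.60 and *Kit* from -0.0235 to 0.85. Between GR KO and parental control tumors, *Pmel* ranged from -0.96 to 0.27. Between the GC tumors, *Pmel* ranged from -0.33 to 1.32, *Mlana* from -1.24 to 2.87 and *Sox10* from -0.83 to 0.0241. For GC in parental cultures, *Mitf* ranged from -0.0615 to 0.18, and between parental tumors and cultures *Pax3* ranged from -0.0775 to 1.17. The cause was not tested.

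A floor of 10 counts moved 5 of 20 floor results, and DESeq2 moved 36 of 168 list counts. The difference of effects was not fitted with 2 groups alone, lists were refitted with DESeq2 only, and the block and the 2 groups alone were not planned between tumors and cultures.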
